A study of Mus musculus with 6 samples.

Results

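Red cell membrane and globin transcripts were followed in splenic B cell preparations of Sle2 and B6 mice. The set held 8 genes: Slc4a1, Sptb, Ank1, Epb42, Hba-a1, Tfrc, Tspan33 and Klf1. All probes annotated to these symbols were taken, which gave 14 of the 45281 probes on the array. Of these, 9 probes were kept because they were detected (p under 0.05 against the negative control beads) on 3 or more of the 6 arrays, and they represented 7 of the 8 genes. The missing gene was Epb42. In all, 9297 genes were tested.

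Total RNA of freshly isolated spleen B cells was hybridised to Illumina mouse BeadChips, with 1 array per mouse and 3 mice per strain. Sle2 mice are congenic: the Sle2 lupus susceptibility locus of chromosome 4 from NZM2410 was placed on the C57Bl/6 background, and the line was labelled B6.Sle2. The comparison strain, B6, was wild type C57Bl/6. The labels give no treatment, age or sex, and they do not say how the B cells were isolated. None of the 8 genes lies on chromosome 4. Slc4a1 and Hba-a1 lie on chromosome 11, Ank1 and Klf1 on 8, Epb42 on 2, Tspan33 on 6, Sptb on 12 and Tfrc on 16.

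Red cells form from erythroblasts, which in mice mature in the spleen as well as in the marrow. Transferrin receptor brings in the iron for haem, the factor Klf1 switches on globin and many red cell genes, and late in maturation the cell fills with haemoglobin and lays a spectrin skeleton under its membrane. Band 3, the anion exchanger encoded by Slc4a1, anchors that skeleton through ankyrin and protein 4.2. Transferrin receptor is also carried by dividing cells of other lineages, and Tspan33, a tetraspanin of erythroid progenitors, is also found on activated B cells.

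The arrays carried both B cell and erythroid RNA. Of 10 B cell markers 8 were tested, with Cd79b, the signalling chain of the B cell receptor, between 13.66 and 13.95 on the normalized log2 scale. The alpha globin probe ranked between 41 and 149 of the 45281 probes by intensity on each array. Gata1 and Tal1, erythroid transcription factors, were not detected on any array, by 2 probes and 1 probe. Of the 14 genes listed as erythroid transcription factors and receptors, 7 were detected and tested, among them Epor, Kit and Nfe2. Klf1 was detected on all arrays. Median intensities before normalization ran from 53.6 to 56.7 on the Sle2 arrays and from 50.4 to 52.1 on the B6 arrays. Xist was at 10.93 on the Sle2 mouse 3 array and 10.13 on the B6 mouse 2 array. Y-linked Eif2s3y was between 8.33 and 8.67 on the other 4, which included B6 mouse 3 with Xist at 5.89, above the 4.30 to 4.36 of the other 3. Whether the B6 mouse 3 array held RNA of more than 1 mouse was not tested, and values with and without it are given below for the genes it moves. B6 mouse 3 also stood apart in summed platelet markers, 1.86-fold the mean of B6 mice 1 and 2, and in neutrophil markers, 2.77-fold. In bulk RNA, more cells of a type and more RNA per cell cannot be told apart.

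Promoter windows of 4 of the genes are shown because they stand for the groups that the levels separated: Sptb and Tspan33, higher in all Sle2 mice, and Hba-a1 and Klf1, whose strains overlapped. RefSeq promoter sequences (250 bases before to 50 after the start, GRCm38.p6) matched 6 of the 8 members, with Slc4a1 and Ank1 left unmatched. The windows are chr12:76710498-76710797 (minus strand), chr6:29693964-29694263 (plus), chr11:32283422-32283721 (plus) and chr8:84901732-84902031 (plus), written 5′ to 3′. Capitals mark GATA words (AGATAA and AGATAG, with TGATAA and also TGATAG) and CACCC words, on either strand. No GATA word overlapped a CACCC word.
Sptb: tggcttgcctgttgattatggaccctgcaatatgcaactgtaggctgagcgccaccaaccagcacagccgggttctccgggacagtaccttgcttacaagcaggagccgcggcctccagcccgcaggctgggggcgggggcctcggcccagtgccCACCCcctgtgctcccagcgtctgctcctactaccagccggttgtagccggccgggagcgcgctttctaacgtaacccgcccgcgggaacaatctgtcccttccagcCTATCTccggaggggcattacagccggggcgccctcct
Tspan33: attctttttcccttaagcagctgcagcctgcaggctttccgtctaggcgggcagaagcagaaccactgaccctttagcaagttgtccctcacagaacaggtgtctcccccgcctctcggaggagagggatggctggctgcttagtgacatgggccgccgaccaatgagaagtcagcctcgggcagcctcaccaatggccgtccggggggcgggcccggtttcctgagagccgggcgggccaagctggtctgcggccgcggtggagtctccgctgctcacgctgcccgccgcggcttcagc
Hba-a1: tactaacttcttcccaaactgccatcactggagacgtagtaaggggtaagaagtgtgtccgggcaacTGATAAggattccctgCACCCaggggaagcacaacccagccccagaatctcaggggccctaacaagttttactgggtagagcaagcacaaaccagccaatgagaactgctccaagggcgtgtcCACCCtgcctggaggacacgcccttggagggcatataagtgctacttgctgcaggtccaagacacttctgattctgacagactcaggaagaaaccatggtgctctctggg
Klf1: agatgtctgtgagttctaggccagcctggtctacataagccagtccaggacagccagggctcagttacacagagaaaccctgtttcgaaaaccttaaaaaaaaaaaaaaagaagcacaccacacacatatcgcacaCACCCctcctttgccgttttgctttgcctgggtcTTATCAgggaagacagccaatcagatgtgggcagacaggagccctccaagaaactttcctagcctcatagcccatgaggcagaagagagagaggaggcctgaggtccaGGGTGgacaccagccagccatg
GATA words are read by Gata1 and related factors, and CACCC words by Klf1 and related factors. A GATA word was in 4 of the 6 matched members (Sptb, Epb42, Hba-a1 and Klf1), against 29.8% of 32851 promoter windows. A CACCC word was in 4 of the 6 (Sptb, Hba-a1, Tfrc and Klf1), against 57.5% of windows. Sptb, Hba-a1 and Klf1 held both, as did 14.9% of windows. Counted from the transcript start, the GATA word lay at position -80 in Klf1 and at -183 in Hba-a1. The Tspan33 window held neither word. These matches are a description of letters and not of factor binding.

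The late membrane genes lay higher in Sle2. Slc4a1, Sptb and Ank1 were above B6 in all 3 Sle2 mice by their brightest kept probes, with differences of 1.13, 0.71 and 0.49 on the log2 scale. Tspan33 lay 0.50 higher without overlap, Hba-a1 and Klf1 overlapped between strains, and Tfrc was 0.49 lower in Sle2. None of the 7 tested genes passed limma's test over all kept probes (adjusted p under 0.05), which called 1.04% of all tested genes, 0.656% as higher and 0.387% as lower in Sle2. At an unadjusted p under 0.05, 4 of the 7 were higher and 1 was lower, where 10.5% of all tested genes were higher and 6.45% were lower. The strains did not overlap in 5 of the 7 genes, against 24.2% of all tested genes. In 4 of them Sle2 was on top, against 14.7% of all tested genes.

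**Figure D1:**
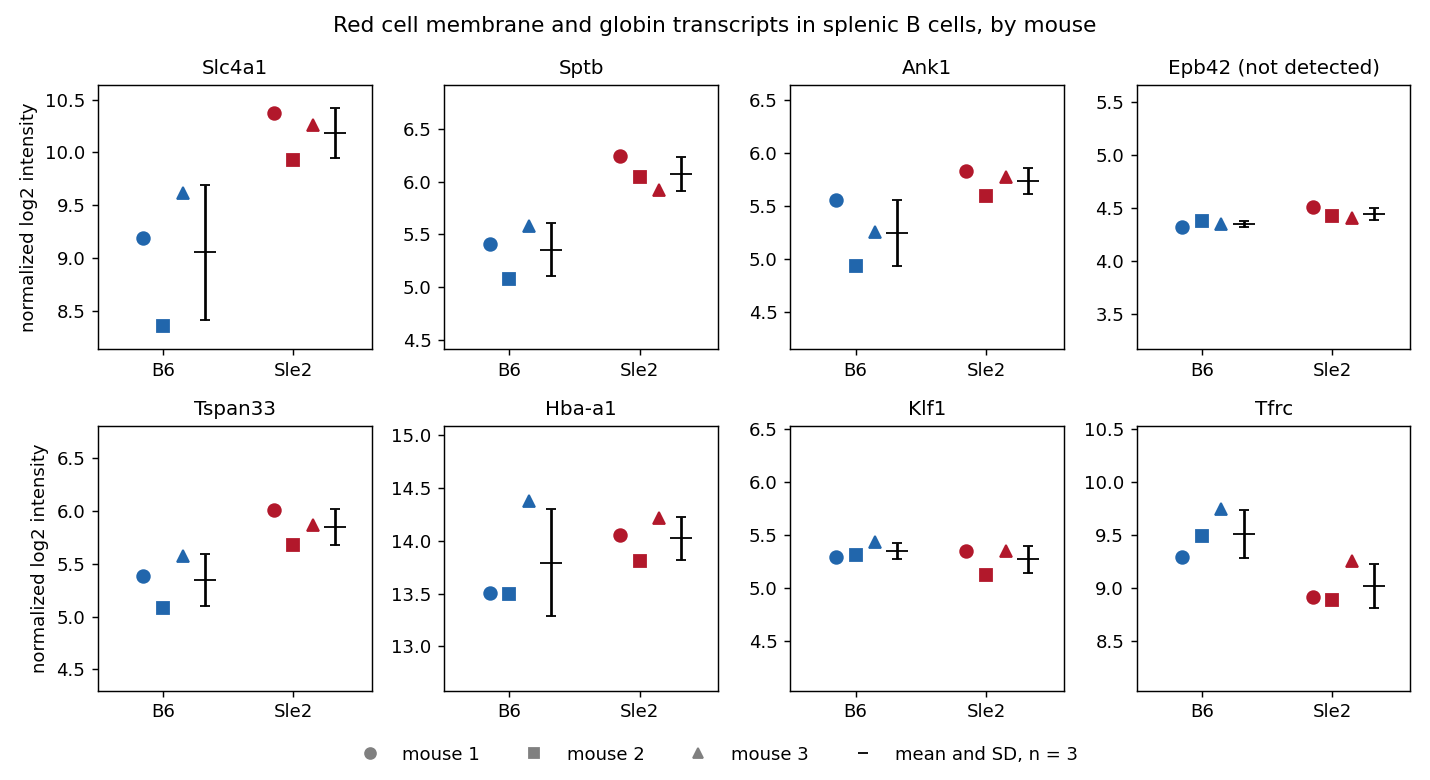
Normalized log2 intensity (vertical axis, same span of units in every panel) of the 8 genes in each B6 and Sle2 mouse. Symbols mark the mouse number and bars the mean and SD of 3 mice. Slc4a1, Sptb, Ank1 and Tspan33 lie higher in all Sle2 mice, Tfrc lies lower, and Hba-a1 peaks in B6 mouse 3 at 14.38.

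Slc4a1 was measured by 1 probe. Its deposited intensities were 1495, 1035 and 1368 in Sle2 mice 1, 2 and 3, and 562, 324 and 808 in B6 mice 1, 2 and 3. After normalization the log2 levels were 10.37, 9.92 and 10.25 in Sle2 and 9.19, 8.36 and 9.62 in B6. The lowest Sle2 mouse thus lay above the highest B6 mouse, and B6 mouse 2 was low even for its strain. The mean was 10.18 ± 0.23 (SD, n = 3) for Sle2 against 9.05 ± 0.64 (SD, n = 3) for B6, a 2.19-fold difference (SE 0.281 on the log2 scale, limma adjusted p = 0.109). The exact two-sided permutation p was 0.1, the smallest that 3 against 3 mice allow. Without B6 mouse 3 the difference was 1.41 (adjusted p = 0.0834), and among the 4 mice with high Eif2s3y it was 0.75 (adjusted p = 0.327).

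Sptb encodes the erythroid beta spectrin, the lattice under the membrane, and had 5 probes. The brighter of its 2 kept probes gave log2 levels of 6.24, 6.05 and 5.92 in Sle2 mice 1, 2 and 3 and 5.41, 5.08 and 5.58 in B6. Again the strains did not overlap, Sle2 was on top and B6 mouse 2 was lowest. The difference was 0.71 (SE 0.146, limma adjusted p = 0.0707), a 1.64-fold higher level in Sle2 and the smallest adjusted p of the 7 tested genes. It was 0.44 without background correction and 0.40 with the authors' series matrix values. The other kept Sptb probe, annotated to a different transcript (AK052321), did not separate the strains: it read 5.32, 5.11 and 5.07 in Sle2 and 5.00, 5.11 and 5.25 in B6, a difference of 0.05 (limma adjusted p = 0.859). The mean of both kept probes differed by 0.38. The 3 remaining probes were detected on no array, with differences of 0.02, 0.03 and 0.00.

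Ank1, which encodes the ankyrin that ties spectrin to band 3, had 1 kept probe. It read 5.83, 5.59 and 5.78 in Sle2 mice 1, 2 and 3 and 5.56, 4.93 and 5.25 in B6, and was detected on 2 of the 3 B6 arrays. The gap between strains was narrow, since Sle2 mouse 2 and B6 mouse 1 nearly met. The difference was 0.49 (SE 0.158, limma adjusted p = 0.186). Without B6 mouse 2 it was 0.33, and among the 4 mice with high Eif2s3y it was 0.31. Without background correction it was 0.29, and with the series matrix values 0.25. The second Ank1 probe was detected on no array and differed by -0.06.

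Epb42, encoding protein 4.2, which binds band 3 and ankyrin, was detected on no array by its single probe, so it was not tested. Its intensities of 53.2, 46.9 and 46.0 in Sle2 and 40.7, 42.7 and 41.3 in B6 did not overlap, but none was above background (detection p-values 0.292 to 0.816). With no filter on dim probes its difference was 0.10 (limma adjusted p = 0.501). A weak probe and a low transcript level cannot be told apart.

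Hba-a1, an alpha globin gene, gave the brightest signal of the set. Its intensities were 18601, 14310 and 20952 in Sle2 mice 1, 2 and 3 and 10318, 10456 and 20567 in B6. B6 mouse 3 stood with the highest Sle2 mouse, while B6 mice 1 and 2 lay below all Sle2 mice. On the log2 scale the mean was 14.02 ± 0.20 (SD, n = 3) for Sle2 against 13.79 ± 0.51 (SD, n = 3) for B6, a difference of 0.23 (SE 0.231, limma adjusted p = 0.64). This value turned on single B6 mice. It was 0.52 (adjusted p = 0.205) without B6 mouse 3, 0.08 without B6 mouse 2 and 0.09 without B6 mouse 1. Among the 4 mice with high Eif2s3y it was -0.02. The alpha globin genes Hba-a1 and Hba-a2 are near-identical, so the probe may read both. The brightest probe of any array read 32692, so compression of this signal near the top of the range was not tested.

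Tspan33, the tetraspanin, was dim but detected on all arrays by 1 probe. It read 6.01, 5.67 and 5.86 in Sle2 mice 1, 2 and 3 and 5.38, 5.08 and 5.57 in B6. Its strains did not overlap, and its 6 arrays fell in the same order as those of Slc4a1. The difference was 0.50 (SE 0.146, limma adjusted p = 0.15), a 1.42-fold higher level in Sle2. The series matrix values gave 0.27, and skipping background correction gave 0.30.

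Klf1, the erythroid transcription factor, was also dim, with 5.35, 5.12 and 5.34 in Sle2 mice 1, 2 and 3 and 5.29, 5.32 and 5.43 in B6. The strains overlapped, and the difference of -0.07 was smaller than its error (SE 0.105, limma adjusted p = 0.756). Sle2 mouse 2 was the lowest array, and without it the sign turned, at a difference of 0.000439.

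Tfrc, encoding transferrin receptor 1, ran the other way. Its brighter probe read 8.91, 8.88 and 9.26 in Sle2 mice 1, 2 and 3 and 9.29, 9.49 and 9.75 in B6, so that all Sle2 mice lay below all B6 mice, as in 9.45% of all tested genes. The difference was -0.49 (SE 0.149, limma adjusted p = 0.165), a 1.41-fold higher level in B6. The second kept probe gave -0.43 (limma adjusted p = 0.273), and there Sle2 mouse 3, at 8.83, passed B6 mouse 1, at 8.71. Dividing cells also carry Tfrc. Of 15 tested genes of dividing cells, 0 were called by limma, and their median difference was 0.07. At an unadjusted p under 0.05, 1 was lower in Sle2 (Mcm3, -0.23) and 0 were higher, where 6.45% and 10.5% of all tested genes were. All Sle2 mice lay below all B6 mice in 2 of them and above in 2, against 9.45% and 14.7% of all tested genes. The part of dividing cells in the Tfrc difference was not tested. The summed level of these genes ran from 4621 to 5476 in Sle2 and from 4791 to 5543 in B6, as linear normalized intensity.

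Slc4a1 was set against Tfrc within each array, which cancels factors shared by all probes. Slc4a1 minus Tfrc was 1.46, 1.04 and 1.00 in Sle2 mice 1, 2 and 3 and -0.10, -1.13 and -0.13 in B6. The strains differed by 1.62 on the log2 scale on this measure, and by 1.28 to 1.80 with each mouse left out in turn. All Sle2 mice already lay above all B6 mice for Slc4a1 and below them for Tfrc. The separation, with its exact two-sided permutation p of 0.1, the smallest possible, was therefore fixed in advance and is no further test. The Hba-a1 minus Tfrc difference also separated the strains, with 5.14, 4.92 and 4.96 in Sle2 and 4.22, 4.00 and 4.63 in B6 (exact permutation p = 0.1). Slc4a1 minus Hba-a1 was 0.90 higher in Sle2 without overlap (exact permutation p = 0.1), with compression of the globin signal not tested. Sptb minus Hba-a1 overlapped (0.48, exact permutation p = 0.2). Only the differences between strains are comparable here, since probes have their own brightness.

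Over the 6 arrays, Slc4a1, Sptb and Tspan33 varied together. Pearson's r was 0.988 between Slc4a1 and Tspan33 (exact permutation p = 0.0014, adjusted over 21 pairs 0.0292) and Spearman's rho was 1 (exact p = 0.0028, adjusted 0.0583). Slc4a1 with Sptb gave r = 0.953 and Sptb with Tspan33 gave r = 0.954, each with an exact permutation p of 0.0042 (adjusted 0.0292) and rho of 0.943 (exact p = 0.0167, adjusted 0.07). These 3 of 21 pairs passed by r, and 0 passed by rho at an adjusted p under 0.05. Part of each r is the strain difference itself. With the strain means removed, r was 0.964, 0.859 and 0.861, as a description. Without Sle2 mouse 1 and B6 mouse 2, the arrays farthest from the median of Slc4a1 or Sptb, r was 0.995, 0.875 and 0.824. Ank1 followed Slc4a1 less closely by r (0.892, exact permutation p = 0.0181, adjusted 0.0758; rho 0.943, adjusted 0.07), and r was 0.532 without those 2 arrays.

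**Figure D2:**
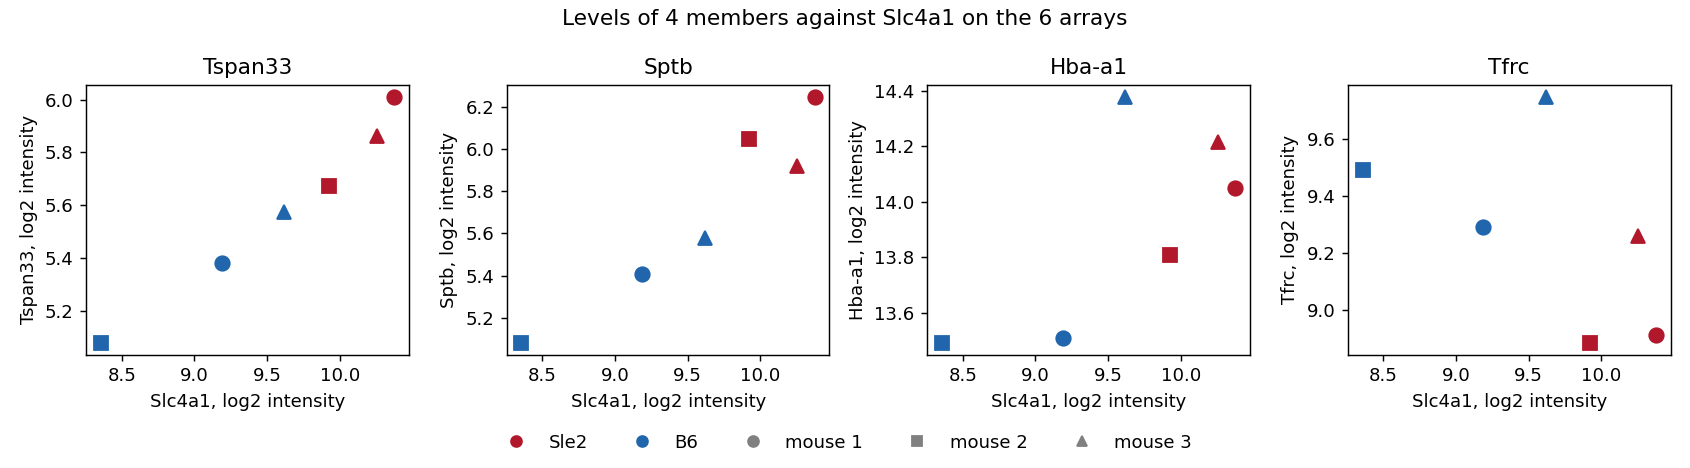
Normalized log2 intensity of Tspan33, Sptb, Hba-a1 and Tfrc (vertical axes) against that of Slc4a1 (horizontal axis) on the 6 arrays. Colours mark the strain and symbols the mouse. Tspan33 lies in the same array order as Slc4a1 (r = 0.988), Hba-a1 is highest in B6 mouse 3, and Tfrc separates the strains in the other direction.

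Hba-a1 and Tfrc followed that trio less closely over the 6 arrays, and no pair with either passed. Slc4a1 with Hba-a1 gave r = 0.696 (exact permutation p = 0.122, adjusted 0.268; rho 0.6, exact p = 0.242, adjusted 0.39), and 0.558 without the 2 farthest arrays. With strain means removed, as a description, Hba-a1 gave r = 0.772 with Slc4a1 and 0.756 with Tspan33, but 0.543 with Sptb and 0.137 with Ank1. Hba-a1 with Tspan33 was at 0.685 over the 6 arrays (exact permutation p = 0.143, adjusted 0.273; rho 0.6, exact p = 0.242, adjusted 0.39) and at 0.902 without B6 mice 2 and 3. Slc4a1 with Tfrc gave r = -0.547 (exact permutation p = 0.261, adjusted 0.394) and rho -0.657 (exact permutation p = 0.175, adjusted 0.334). Without Sle2 mouse 1 and B6 mouse 2 that r was -0.308. With strain means removed the sign of the Slc4a1 and Tfrc relation turned to 0.349. Hba-a1 with Tfrc was at r = 0.176 over the 6 arrays (exact permutation p = 0.717, adjusted 0.824; rho 0.0857, exact p = 0.919, adjusted 0.919), at -0.165 without B6 mice 2 and 3, and at 0.823 with strain means removed. B6 mouse 3 was the top array for Hba-a1, Klf1 and Tfrc, and Sle2 mouse 1 was the top array for Slc4a1, Sptb, Ank1 and Tspan33. B6 mouse 2 was the lowest array for Hba-a1 and for each of the latter 4.

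Genes with a kept probe were ranked by likeness to Slc4a1 over the 6 arrays, and predicted and clone symbols were not named. The highest were Cibar1 (r = 0.999), B4gat1 (0.993), Ginm1 (0.989), Tspan33 (0.988), Nipsnap1 (0.988) and Rnf185 (0.987). Cibar1 lies on chromosome 4, as does the Sle2 locus. Tspan33 was thus placed 4 of 9296. The most opposed were Dennd5b (-0.996), Acin1 (-0.988) and Pltp (-0.986). Among erythroid genes, Nfe2 (0.967) was placed 29, Aqp1 (0.957) 37, Sptb 51 and Trim10 (0.949) 64. Alas2 (0.896) was placed 233, Hbb-bs (0.862) 375, Hbb-bt (0.823) 577 and Hba-a1 1313. Other genes of the erythroid lists lay near the opposite end. Fbxo7 (-0.901) was placed 9147, Klf3 (-0.859) 9026, Add1 (-0.772) 8670 and Bcl2l1 (-0.771) 8665. The r of Hba-a1 to Slc4a1 was 0.696, and whether the r values of the globin probes differ was not tested. The genes most like Tfrc were Ccnd3 (0.994), a cyclin of G1 phase, Ube2h (0.993), a ubiquitin-conjugating enzyme abundant in maturing red cells, Pik3ip1 (0.989) and Unc13d (0.982). The erythroid genes ranked here were singled out after their values were seen. With 6 arrays and 9296 genes these values rank likeness only. Under median scaling the r to Tfrc was 0.777 for Ccnd3 and 0.707 for Unc13d.

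Of 85 further erythroid genes in 6 lists, 55 were tested, and limma called 1 higher (Alad) and 0 lower. At an unadjusted p under 0.05, 17 of the 55 were higher and 3 lower, where 10.5% and 6.45% of all tested genes were. Their median difference was 0.17, against 0.02 for all tested genes. Without overlap between strains, Sle2 was on top for 16 and below for 4, against 14.7% and 9.45% of all tested genes.

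Among other membrane genes, 5 of 11 tested were higher and 1 lower at an unadjusted p under 0.05 (10.5% and 6.45% of all tested genes), and 0 were called by limma. Aqp1, the red cell water channel, read 7.03, 6.56 and 6.41 in Sle2 mice 1, 2 and 3 and 5.79, 5.24 and 6.12 in B6, without overlap. Its difference was 0.95 (SE 0.233, limma adjusted p = 0.105). Kel, the Kell blood group protease, differed by 0.66 (limma adjusted p = 0.101) and Tmcc2 by 0.59 (limma adjusted p = 0.182), neither overlapping between strains. Add1, the widely expressed alpha adducin, lay lower in all Sle2 mice, by 0.29 on the log2 scale (limma adjusted p = 0.164). With the series matrix values Aqp1 was at 0.62, Kel at 0.39 and Tmcc2 at 0.31, and Aqp1 was at 0.57 when its kept probes were averaged. Kel was at 0.42 and Tmcc2 at 0.34 without background correction, Tmcc2 was at 0.38 without Sle2 mouse 1, and Add1 was at -0.12 with median scaling. The list's median was 0.37 but 0.04 under a strict filter on dim probes, while its summed linear level, which the brightest genes set, ran lower in Sle2 (2893 to 2903) than in B6 (2997 to 3122).

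Beta globins followed Hba-a1. Hbb-bt read 14.14, 13.72 and 14.18 in Sle2 mice 1, 2 and 3 and 13.35, 13.37 and 14.12 in B6. B6 mouse 3 again stood with the Sle2 mice and B6 mice 1 and 2 below them. Hbb-bt differed by 0.40 (limma adjusted p = 0.384), Hbb-bs by 0.33 (limma adjusted p = 0.458) and the embryonic Hbb-bh1 by 0.25 (limma adjusted p = 0.477). Hbb-bh1 was dim, at 4.45 to 5.15 over the arrays, where the median of all probes was 4.60. Single B6 mice moved the differences. Without B6 mouse 3 they were 0.65, 0.58 and 0.45 for Hbb-bt, Hbb-bs and Hbb-bh1. The Hbb-bs difference was 0.14 without B6 mouse 2, and that of Hbb-bh1 was 0.10 without B6 mouse 1. Among the 4 mice with high Eif2s3y, Hbb-bt was at 0.19 and Hbb-bs at 0.08. With median scaling Hbb-bs was at 0.50. Beta globin genes share much of their sequence, and their probes may not separate them.

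Haem synthesis held the single called gene of these lists, 1 of 8 tested, against 1.04% of all tested genes. Alad, the second enzyme of the pathway, which lies on chromosome 4, rose by 1.58 (SE 0.106, limma adjusted p = 0.000195). Alas2, the erythroid form of the first enzyme, read 8.15, 7.74 and 8.26 in Sle2 mice 1, 2 and 3 and 6.97, 6.76 and 8.15 in B6. Like the globins, it was high in B6 mouse 3. Its difference was 0.76 (limma adjusted p = 0.278), and without B6 mouse 3 it was 1.19 and was called (limma adjusted p = 0.0399). Without B6 mouse 2 it was 0.49 (limma adjusted p = 0.533), and among the 4 mice with high Eif2s3y it was 0.39 (limma adjusted p = 0.759). Alas1, the form used outside red cells, differed by 0.46 (limma adjusted p = 0.112), Abcb10, a mitochondrial transporter, by 0.50 (limma adjusted p = 0.108) and Ppox by 0.27 (limma adjusted p = 0.209). These 3 did not overlap between strains. With Alad, Sle2 was on top without overlap in 4 of the 8 tested genes, against 14.7% of all tested genes. At an unadjusted p under 0.05, 5 of the 8 were higher and 0 lower, where 10.5% and 6.45% of all tested genes were. Abcb10 was at 0.12 with the mean of all its kept probes (limma adjusted p = 0.657), at 0.26 with the series matrix values and at 0.30 without background correction. The list's median over 8 genes was 0.37, or 0.19 when kept probes were averaged.

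Of 10 iron handling genes tested, 1 was higher at an unadjusted p under 0.05, a share near the 10.5% of all tested genes. This was Tfr2, the second transferrin receptor, at 0.26 (limma adjusted p = 0.253), and 0 were called by limma. Slc25a37, the mitochondrial iron importer, was at -0.22, Ireb2, which stabilises Tfrc mRNA when iron is short, at -0.16, and Trf, transferrin, at -0.28. Over mice left out, Slc25a37 ran from -0.34 to -0.13, Ireb2 from -0.26 to -0.09 and Trf from -0.46 to -0.07. For Tfr2 the series matrix values gave 0.14, and skipping background correction gave 0.15. The list's median of 0.11 had no stable sign: it was -0.02 without Sle2 mouse 1, -0.03 without B6 mouse 3 and -0.16 under the strict filter.

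Among erythroid transcription factors and receptors, Nfe2 differed by 0.75 (limma adjusted p = 0.112), with 6.52, 6.26 and 6.25 in Sle2 mice 1, 2 and 3 and 5.49, 5.24 and 6.03 in B6. Its strains did not overlap, and without B6 mouse 3 the difference was 0.97 and was called (limma adjusted p = 0.0367). The series matrix values gave 0.45 and skipping background correction gave 0.49, not called in either. Bcl11a, which B cells also express, was at 0.24 (limma adjusted p = 0.286), Lmo2 at 0.11 and Klf3 at -0.24. With the mean of kept probes Bcl11a was at 0.11, and without B6 mouse 2 Klf3 was at -0.11. Median scaling gave 0.40 for Bcl11a, 0.26 for Lmo2 and -0.10 for Klf3. Of the 7 tested, 0 were called by limma. At an unadjusted p under 0.05, 2 were higher and 0 lower, where 10.5% and 6.45% of all tested genes were. The list's median was 0.11, and 0.02 without B6 mouse 2.

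Late enzymes and genes of organelle loss were split. Of 16 tested, 0 were called by limma. At an unadjusted p under 0.05, 4 were higher and 2 lower, where 10.5% and 6.45% of all tested genes were. Isg20, an RNA exonuclease, was at 0.64 (limma adjusted p = 0.15) and Hemgn, a nuclear protein of blood cell progenitors, at 0.32 (limma adjusted p = 0.189). Ube2h, at -0.30 (limma adjusted p = 0.227), and Bcl2l1, the survival factor Bcl-x, at -0.28 (limma adjusted p = 0.24), lay lower in all Sle2 mice. Bcl2l1 was at -0.11 with the mean of its kept probes, and with the series matrix values Bcl2l1 was at -0.14, Hemgn at 0.16 and Isg20 at 0.40. Ube2h was at -0.18 with median scaling. The list's median was 0.11, and ran from 0.03 to 0.18 over mice left out.

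**Figure D3:**
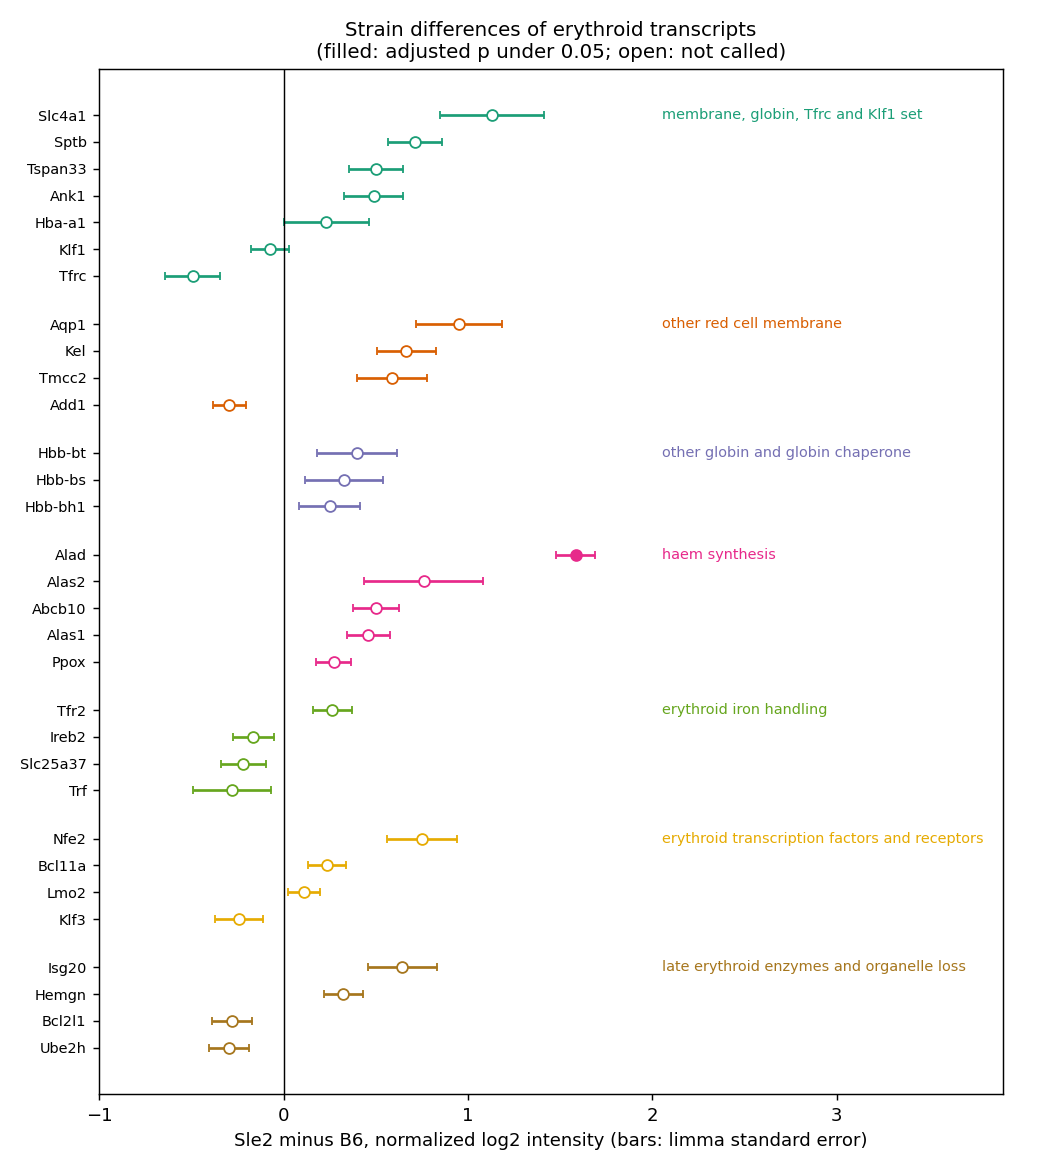
Sle2 minus B6 difference in normalized log2 intensity (horizontal axis, bars show limma's standard error) of the 7 tested genes of the set and of the named genes of 6 erythroid lists. Alad, at 1.58, is the filled point, the one with an adjusted p under 0.05. The other genes run from -0.49 for Tfrc to 1.13 for Slc4a1.

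Markers of other cells were measured on the same arrays, and their part in the results was not tested. The summed linear level of the 8 tested B cell markers was 26201 to 26631 in Sle2 and 25479 to 28844 in B6. Limma called 0, and 1, Cr2, was higher at an unadjusted p under 0.05 (0.62, limma adjusted p = 0.0878). Without overlap, 2 of the 8 were higher in Sle2, Cr2 and Cd22 (0.17), and 1 was lower, Cd79b (-0.15). Among all tested genes 14.7% and 9.45% were. Slc4a1, Sptb and Ank1 together summed to 1086 to 1460 in Sle2 and 392 to 871 in B6. Each already separated the strains alone, so the separation of their sum, which rests mainly on Slc4a1, was fixed in advance. The 11 macrophage markers, which include iron-recycling red pulp cells, summed to 12276 to 18783 in Sle2 and 15081 to 19467 in B6, with Spic, a factor of those cells, at -0.41 (limma adjusted p = 0.241). The 9 neutrophil markers summed to 1758 to 1798 in Sle2 and 796 to 2773 in B6, with the top at B6 mouse 3. The 8 platelet markers summed to 381 to 426 in Sle2 and 398 to 800 in B6, also with the top at B6 mouse 3. The 4 natural killer markers summed to 1163 to 1554 in Sle2 and 802 to 1226 in B6, and the 8 T cell markers to 2580 to 2698 in Sle2 and 2545 to 2834 in B6, with Cd4 and Cd8a not detected on any array. The 7 plasma cell markers summed to 12786 to 14170 in Sle2 and 11568 to 12265 in B6. By limma, 0 genes of these 6 lists were called. The sums rest on the brightest genes, and the medians show shifts as large as those of erythroid lists. The T cell median was 0.38, with 7 of 8 genes positive, while its bright member Cd2 was at -0.14. In 4 of the 8 T cell genes Sle2 was higher without overlap (14.7% of all tested genes) and at an unadjusted p under 0.05 (10.5%). These were Bcl11b at 0.69 (limma adjusted p = 0.0678), Zap70 at 0.50 (limma adjusted p = 0.145), Cd3g at 0.41 (limma adjusted p = 0.163) and Icos at 0.35 (limma adjusted p = 0.211). The natural killer median was 0.42, with 4 of 4 genes positive and Prf1 at 0.47 (limma adjusted p = 0.142). The medians were 0.30 for neutrophil, 0.19 for plasma cell, 0.10 for B cell, -0.11 for macrophage and -0.27 for platelet genes. At an unadjusted p under 0.05, 1 of 9 neutrophil and 2 of 7 plasma cell genes were higher and 2 of 8 platelet genes were lower. Of 11 macrophage genes, 1 lay in each direction. Among all tested genes, 10.5% were higher and 6.45% lower at that threshold.

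**Figure D4:**
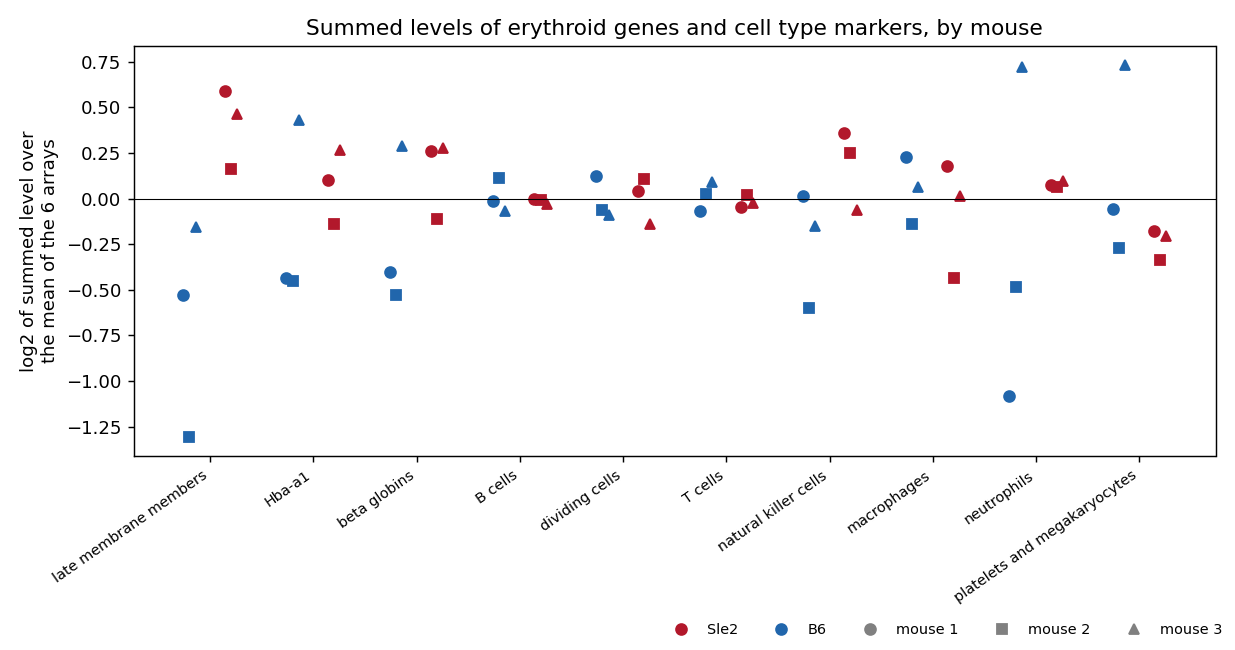
Summed linear level of gene lists on each array, as log2 of its ratio to the mean of the 6 arrays (vertical axis). Colours mark the strain and symbols the mouse. The late membrane genes, whose sum rests mainly on Slc4a1, separate the strains, as each of them already did alone. B cell markers stay within 25479 to 28844 in sum, and neutrophil and platelet markers peak in B6 mouse 3. Plasma cell markers, whose sums also separate, are not drawn.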

How the data were processed

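RNA of spleen B cells from 3 Sle2 mice and 3 B6 mice was measured on 1 Illumina array per mouse, with strains taken from sample titles. The deposited bead-summary intensities are linear and not normalized, judged from the values. The submitters' processing notes name GenomeStudio. The same table holds a detection p-value per probe and array, per the file headers. A second set of intensities, deposited by the authors as the series matrix, looks quantile-normalized from its values, with array medians between 53.6264 and 53.6581.

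GEO's platform annotation paired 34885 of the 45281 probes with 1 gene, 18 with several and 10378 with none. RefSeq (GRCm38.p6) gave current symbols for 34807. The deposited files name no build. Intensities were corrected with normexp from 936 negative controls implied by the detection p-values, with offset 16, then quantile-normalized and put on the log2 scale with neqc (limma 3.58.1, R 4.3.3). Detection (p under 0.05) on 3 or more of 6 arrays was required, which 17861 probes met, and the brightest such probe stood for its gene. Strains were compared with lmFit and eBayes, with Benjamini-Hochberg adjustment over kept probes. The fit was tested on simulated data. Limma's p-values set each strain difference against the spread between arrays of the same strain, and the number of arrays limits the precision. With 1 array per mouse, variation between mice, cell preparations and arrays cannot be told apart. Correlations used all orders of the 6 arrays.

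Named genes were the 8 members, the called and up to 4 further genes with the smallest p of each erythroid list, and genes ranked by r to Slc4a1 (6 highest, 3 lowest) and Tfrc (4 highest). Markers of other cells were given as lists. The members and lists were chosen with earlier results of these data known. Mouse numbers were not treated as pairs in the main fit. Deviations of same-numbered mice correlated at 0.267, 0.17 and 0.0885, above the -0.251 to 0.06 of differently numbered mice. Whether same-numbered mice shared a batch was not tested, and a replicate block was fitted as an alternative. Alternatives were no background correction, median scaling, series matrix values, dropping the filter, a strict one (p under 0.01 on all 6 arrays), array weights, probe means, a trended robust prior, a replicate block, an Xist covariate and each mouse left out. The fit on the 4 mice with high Eif2s3y was chosen after seeing the data.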

Additional observations from a re-analysis of the deposited data

How the results depend on the processing

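Of 115 recomputed differences of the 7 tested genes, 110 kept their sign and call. Sptb was called with median scaling (0.78, adjusted p = 0.0367) and a trended robust prior (0.71, adjusted p = 0.0282), and Slc4a1 with the replicate block (1.13, adjusted p = 0.0454), so that 1 member was called in each of these 3 fits and 0 with the others. The signs of Klf1 without Sle2 mouse 2 (0.0004394, with -0.1105 to 0.0004394 over mice left out) and of Hba-a1 in the 4 mice with high Eif2s3y (-0.015) turned. The cause was not tested. Members called with a mouse left out numbered 0 throughout. Members higher at an unadjusted p under 0.05 fell from 4 to 2 in the 4 mice with high Eif2s3y and to 1 with the strict filter, which keeps Slc4a1, Hba-a1 and Tfrc alone. That filter also left 1 member with all Sle2 mice above all B6 mice. With median scaling 0 members were lower at that threshold, and the median of all tested genes moved from 0.02 to 0.14. The median of the late membrane genes was 0.44 without background correction, 0.40 with the series matrix values, and 1.13 (Slc4a1 alone) with the strict filter, against 0.71, and 0.58 to 0.82 over mice left out. Ank1 and Tspan33 were at 0.29 and 0.30 without background correction and 0.25 and 0.27 with the series matrix values, and Sptb at 0.44 and 0.40. The cause was not tested.

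Genes called among all tested numbered 97, and 173 without background correction, 245 with median scaling, 187 with the series matrix values, 285 with the trended robust prior, 56 with no filter, 51 with the Xist covariate, 27 in the 4 mice with high Eif2s3y, 72 with the replicate block and 28 to 143 with single mice left out (Sle2 mouse 1 gave 28, Sle2 mouse 2 gave 32, Sle2 mouse 3 gave 29, B6 mouse 2 gave 56 and B6 mouse 3 gave 38 when left out). Haem synthesis genes called rose from 1 to 2 with median scaling, the series matrix values and the trended robust prior, through Alas1, and to 2 without B6 mouse 3, through Alas2 (1 to 2 over mice left out). Transcription factors called rose from 0 to 1, Nfe2, with the trended robust prior and without B6 mouse 3 (0 to 1 over mice left out). The r of Slc4a1 and Klf1 was -0.01, and 0.33 with median scaling or 0.59 with strain means removed. That of Slc4a1 and Tfrc turned to 0.35 with strain means removed, and that of Hba-a1 and Tfrc to -0.165 without the 2 farthest arrays.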
